A study of Homo sapiens with 35 samples.

Results

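The genes described here encode the core subunits of the transcription factor AP-1, and were chosen by name: JUN, JUNB and JUND of the JUN family, and FOS, FOSB, FOSL1 and FOSL2 of the FOS family. All 7 were found among the 62649 gene identifiers of the RNA-seq count table, and all 7 passed the filter on low counts that left 16879 genes for testing. The cells were U-87 MG, an established human glioblastoma line. The RNA-seq libraries fell into 4 groups of 3: control cells left untreated, control cells given 10 ng/ml of TWEAK for 48 h, and ETS1 KD and NFKB2 KD cells given the same TWEAK treatment. Per the labels all cells were first starved of serum for 8 h, and TWEAK was added anew at 24 h. TWEAK is a cytokine of the TNF family that activates non-canonical NF-kB signalling, in which the NFKB2 product p100 is processed to p52, and ETS1 is a transcription factor of the ETS family. The knockdowns were made with lentiviral CRISPR/Cas9, and whether a line grew from 1 clone is not stated. Further, no untreated knockdown library was analysed, so an effect of TWEAK within knockdown cells could not be measured. ChIP-seq peak lists with 2 libraries a group covered p52 (control untreated, control TWEAK, and ETS1 KD with guide 1 or guide 2 under TWEAK), ETS1 (control untreated and control TWEAK) and RNA Pol II (the same 4 conditions as RNA-seq). The labels give no guide for the knockdown cells of the RNA-seq and RNA Pol II libraries.

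AP-1 is a dimer of leucine zipper proteins that binds elements such as TGACTCA. These were searched here with the looser pattern TGANTCA, in which N is any base. JUN family proteins pair with each other or with FOS family proteins, while FOS family proteins need a JUN partner to bind DNA. Several of these genes are immediate-early genes, whose transcripts appear and decay within a short time of a stimulus, and MAP kinases act on both their transcription and their proteins. FOSL1, which encodes FRA-1, is known for its association with the mesenchymal state of glioblastoma. The comparisons asked which AP-1 genes changed with TWEAK, whether the knockdown of ETS1 or NFKB2 moved them, and where p52, ETS1 and RNA Pol II peaks lay around them.

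RNA-seq libraries held between 28384201 and 40192606 counts. The targeted genes followed the labels: ETS1 rose with TWEAK from 42.8 ± 1.99 to 77.5 ± 8.69 CPM (counts scaled by effective library size; mean ± SD, n = 3) and stood at 33.0 ± 4.78 CPM in ETS1 KD cells, and NFKB2 rose from 56.9 ± 8.77 to 290.0 ± 55.3 CPM and stood at 91.0 ± 14.7 CPM in NFKB2 KD cells. Of the markers of the line, VIM, CD44, S100A6 and NES were high (76.6 CPM or more in every library), while the glial markers GFAP, S100B and SOX2 stayed under 0.365 CPM and OLIG2 under 1.74 CPM. Markers of immune, endothelial, epithelial and myelinating cells did not exceed 2.05 CPM. The libraries of each group differed in how their levels moved with the GC content of genes: 6 libraries fell with GC and 6 rose, and the replicates of every group fell on both sides. Control untreated libraries 1 and 2 and control TWEAK library 1 fell by between 0.097 and 0.145 on the log2 scale for each 10 points of GC, whereas control untreated library 3 rose by 0.213 and control TWEAK libraries 2 and 3 by 0.027 and 0.035. The split was made at 0, with trends from -0.145 to -0.013 on one side and from 0.013 to 0.245 on the other. No label explains this split. Values within each side of it are given for TWEAK against untreated control cells and for FOSL1 in NFKB2 KD cells. A fit with it as a factor is given beside the first, and in the closing section where it changed a count or a sign.

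Per kilobase of exon, FOSL1 was the most abundant AP-1 transcript and FOS and FOSB were the least. FOSL1 averaged 223 CPM per kb over the 12 libraries, rank 123 of the 16879 genes tested. JUN followed with 68.1, JUND with 58.1, JUNB with 37.6 and FOSL2 with 28.9 CPM per kb. FOS and FOSB averaged only 0.864 and 0.315 CPM per kb, ranks 11745 and 14137, and FOS held between 61 and 138 counts in a library. In untreated control cells the levels per kb of JUN (68.4 ± 5.51) and JUND (61.0 ± 13.2) lay within each other's spread, as did those of JUNB (29.5 ± 4.19) and FOSL2 (29.4 ± 4.41). The mean of FOSL1 there was 117 ± 45.9 CPM per kb, above JUN in each of the 3 libraries. FOSL1 accounted for 78.5% ± 3.91 of the summed per-kb level of the FOS family in untreated cells and for 89.3% ± 2.80 under TWEAK, with 90.6% ± 2.11 in the ETS1 KD libraries and 87.1% ± 4.16 in the NFKB2 KD libraries (SD, n = 3). The JUN family was more even, with JUN at 43.3% ± 2.59, JUND at 38.1% ± 2.84 and JUNB at 18.6% ± 0.81 of its sum in untreated cells. JUNB reached 27.5% ± 1.86 under TWEAK, and its lowest TWEAK library (25.7%) was above its highest untreated library (19.5%).

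**Figure D1:**
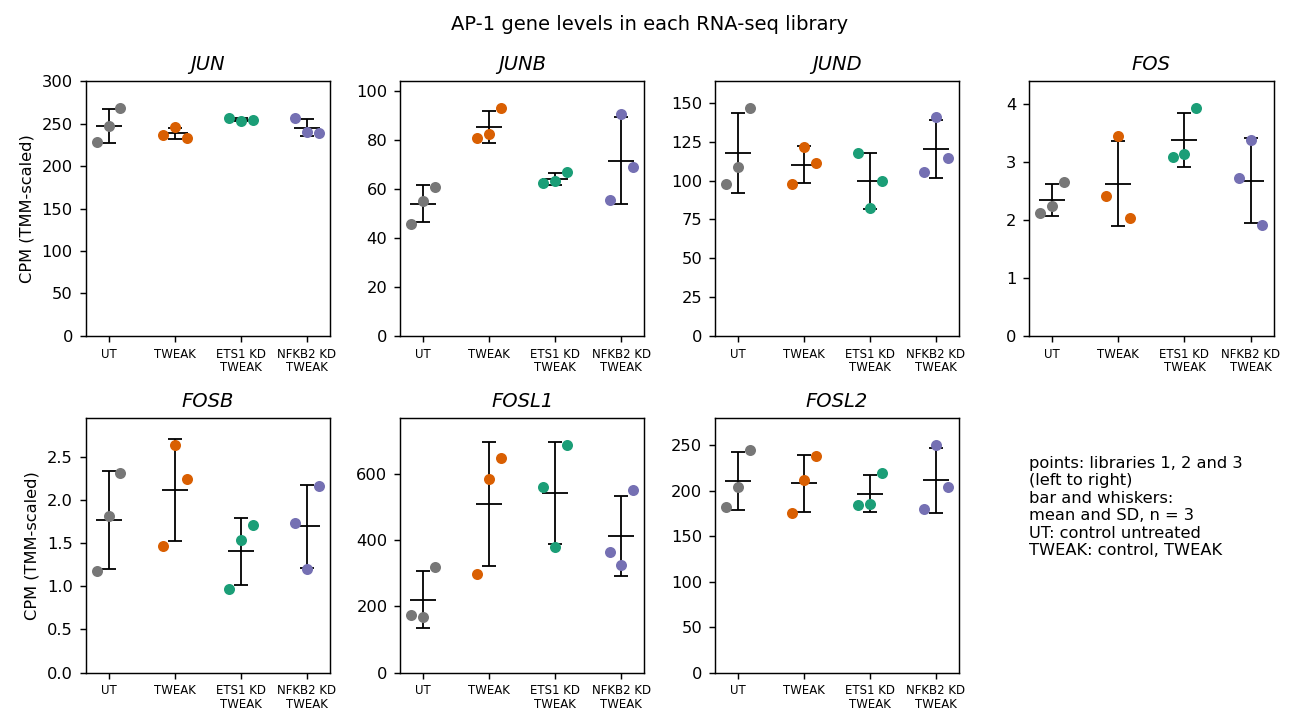
RNA level of each AP-1 gene in CPM (vertical axes, from 0) in the 12 RNA-seq libraries, with the mean and SD of the 3 libraries of each group. JUNB lies between 45.8 and 61.0 CPM in untreated and between 80.9 and 93.0 CPM in TWEAK-treated control cells, while JUN stays between 228 and 268 CPM in every library.

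TWEAK raised JUNB in control cells, and FOSL1 showed the largest fitted change of the family without passing the test. JUNB, a JUN family member with weak transactivation of its own that can oppose JUN, measured 45.8, 55.2 and 61.0 CPM in the untreated libraries. It measured 80.9, 82.7 and 93.0 CPM in the TWEAK libraries. Every TWEAK library was thus above every untreated library, and the fitted fold was 1.58 (log2 fold change 0.66, SE 0.16, edgeR quasi-likelihood test, Benjamini-Hochberg adjusted p = 0.0484 over all genes). FOSL1 measured 173, 168 and 320 CPM in untreated libraries 1, 2 and 3. In TWEAK libraries 1, 2 and 3 it measured 297, 584 and 647 CPM. The lowest TWEAK library was below the highest untreated library, so the groups overlapped, and the fitted fold of 2.31 (log2 fold change 1.21, SE 0.34) gave an edgeR adjusted p of 0.0793. In bulk RNA, fewer cells with a transcript and less of it per cell cannot be told apart. The low FOSL1 values of both groups came from the libraries whose levels fell with GC. Among these, its mean was 297 CPM with TWEAK (1 library) and 170 CPM without (2 libraries), a ratio of 1.74, and among the libraries that rose with GC it was 616 CPM (2 libraries) and 320 CPM (1 library), a ratio of 1.92. The same ratios for JUNB were 1.60 and 1.44.

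The calls of both genes depended on the fit. JUNB was past the threshold by a small margin: its adjusted p was 0.052 with RLE scaling and 0.0681 with no scaling beyond library size, and lay between 0.0551 and 0.229 when any 1 of the 6 libraries was left out. With the GC trend of the library as a factor, an alternative chosen after seeing the data, the edgeR adjusted p was 0.0118 for JUNB and 0.025 for FOSL1, in a fit that called 1749 genes in place of 520. FOSL1 also passed with DESeq2 (adjusted p = 0.00686), with a GC and length correction (0.0232), without untreated library 3 (0.0282) and without TWEAK library 1 (0.029). The libraries left out there held the highest untreated and the lowest TWEAK value of FOSL1, the values by which the groups overlapped. HOOK2, on the opposite strand, shares 259 of the 1830 exon bases of JUNB, and without a stated strand setting its reads cannot be told apart there. HOOK2 as a whole lay between 15.6 and 28.9 CPM and its fitted log2 fold change with TWEAK was -0.20.

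The other 5 members showed no change past the threshold with TWEAK, so 1 of 7 was called beside 3.08% of all genes tested (1.55% higher), and the libraries of 1 of 7 did not overlap beside 22.5% of all genes. JUN, the founding member of the family, lay between 228 and 268 CPM in untreated and between 233 and 246 CPM in TWEAK libraries, and the 95% interval of its log2 fold change ran from -0.25 to 0.14. JUND, the most constitutive JUN gene, had an interval from -0.48 to 0.29, and FOSL2, which encodes FRA-2, from -0.36 to 0.33. FOS went from 2.34 ± 0.28 to 2.62 ± 0.73 CPM and FOSB from 1.77 ± 0.57 to 2.12 ± 0.59 CPM, with wide intervals that reached 0.70 for FOS and 0.95 for FOSB. At these levels a change of FOSB of 1.5-fold was within its interval. The median log2 fold change of the 7 members was 0.17, beside 0.02 for all genes.

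**Figure D2:**
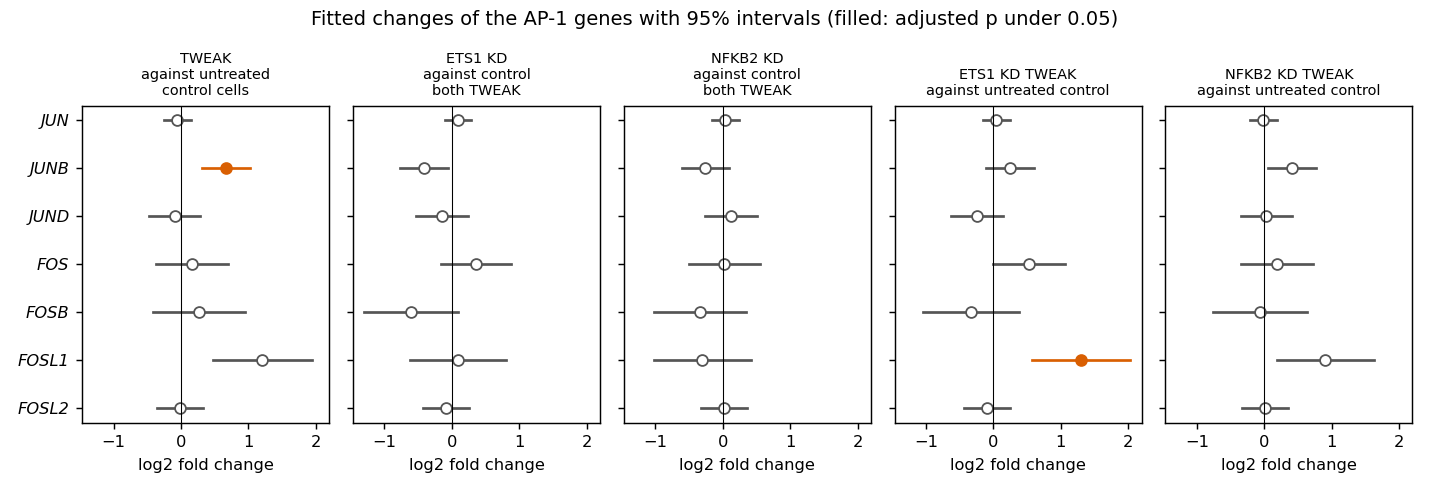
Fitted log2 fold change of each AP-1 gene (horizontal axes) in 5 comparisons, with the 95% interval of the edgeR fit as a line and filled points where the adjusted p was under 0.05. JUNB is filled for TWEAK against untreated control cells and FOSL1 for ETS1 KD TWEAK against untreated control, and no point is filled for either knockdown against the TWEAK-treated control.

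In ETS1 KD cells no AP-1 gene passed the test against TWEAK-treated control cells, and the mean of FOSL1 was 543 ± 154 CPM beside 509 ± 187 CPM in those controls. JUNB was at 62.5, 63.2 and 66.9 CPM in the ETS1 KD libraries. These values were all below the 3 control TWEAK libraries and all above the 3 untreated libraries. The fitted log2 fold change against the TWEAK control was -0.41 (SE 0.16, edgeR adjusted p = 0.308), with a 95% interval from -0.77 to -0.06. FOSL1 measured 561, 381 and 687 CPM, which overlapped the control TWEAK libraries, and its log2 fold change was 0.09 with an interval from -0.62 to 0.81 (adjusted p = 0.977). JUN lay between 254 and 257 CPM, above all 3 control TWEAK libraries by a fitted log2 fold change of only 0.10 (SE 0.09). Thus 0 of 7 members were called by edgeR beside 1.39% of all genes (1 of 7, JUNB, at an unadjusted p under 0.05 beside 12% of all genes, and none by DESeq2), and 2 of 7 did not overlap beside 20.3%. FOSB, at 1.40 ± 0.39 CPM, had a log2 fold change of -0.60 (SE 0.32, adjusted p = 0.512) and FOS, at 3.37 ± 0.47 CPM, one of 0.36 (SE 0.24, adjusted p = 0.667).

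In NFKB2 KD cells no AP-1 gene passed the test against the same controls either. JUNB spread widely, at 55.6, 90.6 and 68.9 CPM in libraries 1, 2 and 3, and its log2 fold change was -0.25 (SE 0.16, adjusted p = 1). FOSL1 measured 364, 325 and 551 CPM, with a mean of 413 ± 121 CPM that lay between those of untreated and TWEAK-treated control cells, and with a log2 fold change of -0.30 (SE 0.33, adjusted p = 1). Both genes overlapped the control TWEAK libraries. Unlike in the control groups, the lowest FOSL1 value here came from library 2, which rose with GC, by 0.245 for each 10 points. FOSL1 was higher than in control TWEAK cells among the libraries that fell with GC (364 and 551 against 297 CPM). FOSL1 was lower among those that rose (325 against 584 and 647 CPM). The 551 CPM came from NFKB2 KD library 3, whose trend was nearly flat at -0.013, against -0.145 in control TWEAK library 1. Control TWEAK library 2, at 584 CPM, had a similarly flat trend of 0.027 but lay on the other side of the split. The fitted sign of FOSL1 also changed with the GC trend of the library as a factor. The number of members called by edgeR was 0 of 7 beside 0.0296% of all genes, with 0 of 7 at an unadjusted p under 0.05 beside 3.91%, and 0 by DESeq2. No member separated the libraries of these groups, beside 6.87% of all genes. Between the knockdowns, 0 of 7 members passed the edgeR test of the difference (adjusted p of 0.509 or more, with 1.94% of all genes called, and 0 of 7 not overlapping beside 19%), and the largest fitted difference, 0.39 for FOSL1, had an SE of 0.33.

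Against untreated control cells, FOSL1 rose in TWEAK-treated ETS1 KD cells. All 3 ETS1 KD libraries were above all 3 untreated libraries, and the fold was 2.46 (log2 fold change 1.30, SE 0.34, edgeR adjusted p = 0.0222). It was the 1 member of 7 called there, beside 13.8% of all genes (6.22% higher), and JUNB, FOS and FOSL1 did not overlap, 3 of 7 beside 34.9%. JUNB, at 64.2 ± 2.36 against 54.0 ± 7.67 CPM, was not called (log2 fold change 0.25, SE 0.16, adjusted p = 0.367). In NFKB2 KD cells FOSL1 was also above every untreated library, 1 of 7 members beside 11.3% of all genes. The margin was small, with 325 CPM in NFKB2 KD library 2 and 320 CPM in untreated library 3. Both of these libraries rose with GC. The log2 fold change of FOSL1 was 0.91 (SE 0.33, edgeR adjusted p = 0.396), and 0 of 7 members were called by edgeR beside 0.604% of all genes (0 by DESeq2, and 2 of 7, JUNB and FOSL1, at an unadjusted p under 0.05 beside 8.56%). These comparisons differ from the first by both TWEAK and the knockdown and share its untreated libraries, and they are listed side by side only. FOSL1 lost its call in ETS1 KD cells without untreated library 1 or 2 or without ETS1 KD library 1 or 3, with adjusted p between 0.0635 and 0.0997.

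The strongest p52 peaks near any AP-1 gene lay at FOSL1 and JUNB, and both were in the lists of all 6 TWEAK-treated p52 libraries and of neither untreated one. A site is counted here when both libraries of a condition list overlapping peaks in the gene or within 15 kb of one of its start sites. In control TWEAK cells 4 of 7 members had a p52 site (JUN, JUNB, FOS and FOSL1), beside 13.6% of all genes. In untreated cells 0 of 7 had one, beside 0.0711%, and neither untreated library alone listed a p52 peak at any member. The untreated lists were short, with 714 and 452 peaks against 3579 and 11761 under TWEAK, so a peak too weak to be called in them was not detectable. With only the 452 strongest peaks of each p52 library, JUNB and FOSL1 had a site in control TWEAK and in both ETS1 KD conditions, and no member had one in untreated cells. With 2 libraries against 2 an exact permutation test cannot go below p = 0.333, so presence is described and not tested.

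The FOSL1 site lay upstream of the gene in intergenic sequence, about 12.6 kb from the start of its MANE transcript (FOSL1: chr11:65892049-65900573 on the minus strand, hg38). Its summits fell between positions -12582 and -12578 from that start in all 6 libraries. The next protein-coding start in distance was that of C11orf68, 5390 to 5394 bases away, nearer than that of FOSL1. The peak ranked 38 of 3579 and 23 of 11761 by q-value in control TWEAK libraries 1 and 2, 47 of 1387 and 51 of 3897 in ETS1 KD guide 1, and 33 of 4252 and 37 of 3938 in ETS1 KD guide 2. Fold enrichment over background, as the peak caller gave it, was 32.4 and 65.8 in control TWEAK, 27.3 and 52.7 with guide 1 and 69.6 and 68.7 with guide 2. The site thus stood among the strongest of every list, and the values of ETS1 KD cells overlapped those of the control for guide 1 and were above them for guide 2, on a scale that is not normalised between libraries.

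The JUNB site lay just past the 3' end of the gene (JUNB: chr19:12791486-12793315 on the plus strand), 2125 to 2129 bases from its start, and inside an intron of the longest HOOK2 transcript. The nearest protein-coding start was that of HOOK2, 1029 to 1033 bases away, nearer than that of JUNB. The site ranked 202 and 166 in the control TWEAK lists, 207 and 269 with guide 1 and 239 and 322 with guide 2. Its fold enrichment was 19.2 and 40.8 in control TWEAK, 19.2 and 32.5 with guide 1, and 26.3 and 21.9 with guide 2, again overlapping between the conditions. The 200 bases around both summits are printed because they carry the most stable p52 peaks at AP-1 genes. They are chr11:65912867-65913066 and chr19:12793512-12793711, both hg38 and plus strand, with the summit of control TWEAK library 1 at their centre and with matches to the NF-kB consensus and to TGANTCA in capitals:
FOSL1 upstream site: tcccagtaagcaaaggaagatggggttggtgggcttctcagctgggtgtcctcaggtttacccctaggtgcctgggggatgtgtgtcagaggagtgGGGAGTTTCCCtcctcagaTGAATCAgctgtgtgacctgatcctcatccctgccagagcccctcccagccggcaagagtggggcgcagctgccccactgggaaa
JUNB downstream site: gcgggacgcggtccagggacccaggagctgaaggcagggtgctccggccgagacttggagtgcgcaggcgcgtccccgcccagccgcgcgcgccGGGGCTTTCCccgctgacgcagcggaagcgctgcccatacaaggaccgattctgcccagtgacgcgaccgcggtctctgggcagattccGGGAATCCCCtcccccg

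At the FOSL1 site, 2 overlapping NF-kB matches began at bases -4 and -3 from the summit. TGAATCA, a match to the looser pattern TGANTCA, began at base 16 after it. The ETS core AGGAAG, left in lower case above, began at base -87. At the JUNB site NF-kB matches began at bases -6 and 84, and no TGANTCA or AGGAAG was found. Searched on both strands of all 200-base summit windows, the NF-kB consensus was in 59.5% and 63.5% of the windows of control TWEAK p52 libraries 1 and 2, and TGANTCA was in 716 of 3579 and 2761 of 11761. AGGAAG was in 24.9% and 23.6% of these p52 windows. In ETS1 summit windows under TWEAK the shares were 4.43% and 4.52% for NF-kB and 1.96% and 2.0% for TGANTCA. For AGGAAG they were 18.5% and 18.8%. A match is a description of the sequence and was not tested as a binding site.

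**Figure D3:**
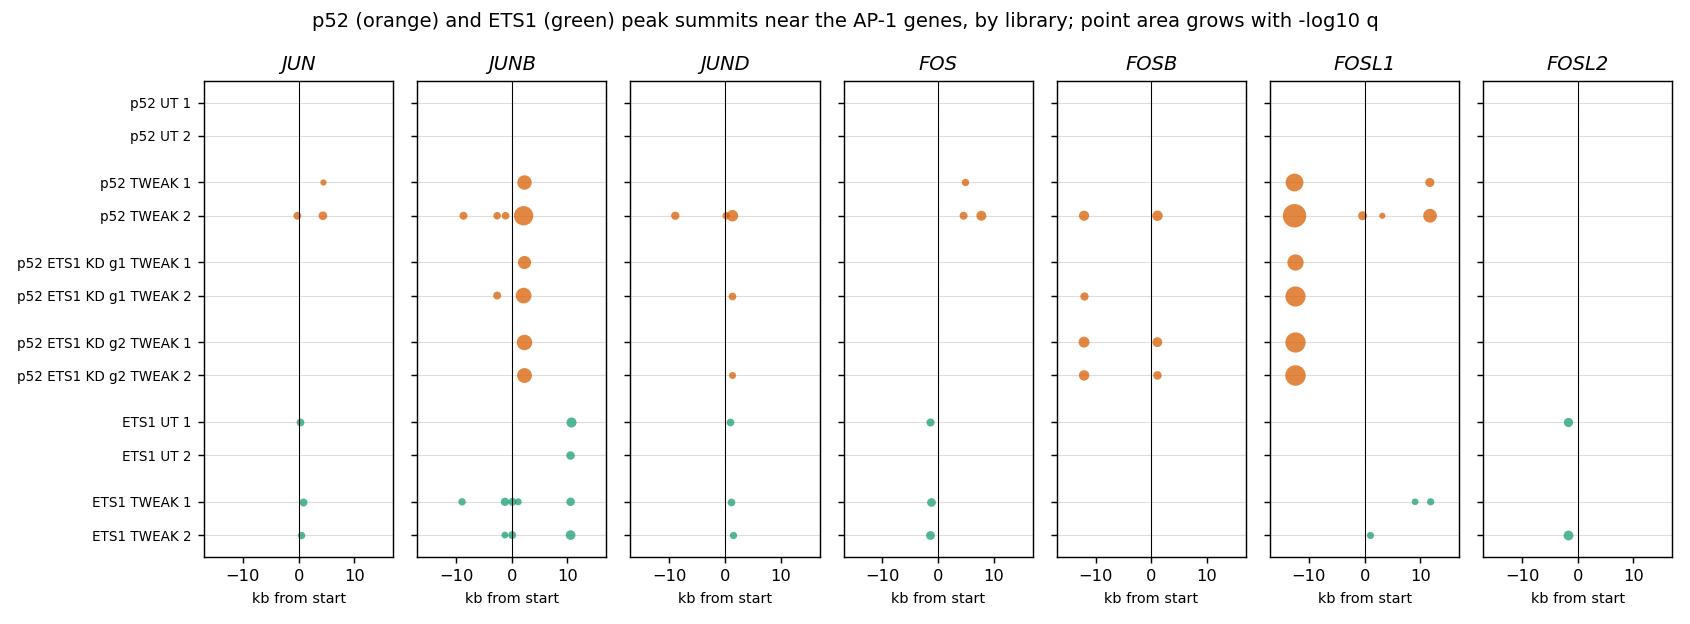
Summits of p52 (orange) and ETS1 (green) peaks in each library (rows), by distance in kb from the MANE start of each AP-1 gene in the direction of transcription (horizontal axes), with point area growing with -log10 q. The 2 columns of large orange points are the JUNB site at 2.1 kb and the FOSL1 site 12.6 kb upstream, present in the 6 TWEAK rows and absent from the 2 untreated rows.

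No other p52 peak at an AP-1 gene was in all 6 TWEAK libraries. JUND had no site, but control TWEAK library 2 listed a peak 1336 bases past its start with a -log10 q of 27.8, above that of the JUN and FOS sites, and with 3 NF-kB matches around its summit. Peaks with summits 1339 and 1288 bases past the JUND start were also in library 2 of guide 1 and of guide 2, and in library 1 of none of these conditions. A second site of control TWEAK cells in the window of FOSL1 lay 11718 to 11758 bases past its start, beside the start of FIBP, and was in the list of no ETS1 KD library. The JUN site, in an intron of its longer transcript 4373 and 4456 bases from the start, had -log10 q of 1.32 and 7.57, and the FOS site, 4563 and 4753 bases past the start, had 4.93 and 3.38. With -log10 q of at least 5, only JUNB and FOSL1 kept a p52 site in control TWEAK cells. In ETS1 KD cells 2 of 7 members had a site with guide 1 (JUNB and FOSL1), beside 6.09% of all genes, and 3 of 7 with guide 2 (those and FOSB), beside 13.8%. FOSB peaks 12.1 kb upstream, in an intron of ERCC1, and 1.1 kb past its start were in control TWEAK library 2 but not in library 1. FOSL2 had no p52 peak in any library. No p52 site lay at a member's promoter (1000 bases before to 100 after a start) in control TWEAK, guide 1 or untreated cells, beside 4.21%, 1.68% and 0.0178% of all genes, and 1 of 7 had one with guide 2 (FOSB), beside 4.11%.

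Shared ETS1 sites lay at 4 of the AP-1 genes under TWEAK, and JUNB held more of them than any other member. In control TWEAK cells 4 of 7 members had an ETS1 site (JUN, JUNB, JUND and FOS), beside 11.6% of all genes, and in untreated cells 1 of 7 had one (JUNB), beside 8.55%. At JUNB both TWEAK libraries listed a peak at the start of the gene, with summits 125 and 82 bases past it and fold enrichments of 4.92 and 4.72. Both also listed one about 1.2 kb upstream, with 5.41 and 3.74. Neither untreated library listed either peak. A further ETS1 site 10.5 to 10.6 kb past the JUNB start, at the start of THSD8 and near that of PRDX2, was in all 4 ETS1 libraries and was the whole of the untreated count. The FOS site about 1.4 kb upstream, with enrichments of 6.11 and 6.20 under TWEAK and 4.72 in untreated library 1, was missing from untreated library 2, whose list was the shortest with 2066 peaks. When a peak in either library counted, 5 of 7 members had one in untreated cells. With -log10 q of at least 5 in both libraries, JUNB and FOS kept a site under TWEAK. The JUNB site kept was the one at THSD8, with 6.85 and 12.5. The peaks in TWEAK libraries only, at the JUNB start (5.05 and 4.71) and 1.2 kb upstream (6.18 and 2.18), did not pass in both. FOSL2 had an ETS1 peak 1.8 kb upstream in untreated library 1 and in TWEAK library 2 only, and FOSL1 had no shared ETS1 site. FOSB had no ETS1 peak in any library. At promoters 1 of 7 members had an ETS1 site under TWEAK, beside 7.48% of all genes, and 0 of 7 in untreated cells, beside 5.37%.

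The 250 bases before the RefSeq start of JUNB, chr19:12791236-12791485 on the plus strand of GRCh38.p14, are printed because the ETS1 peak of both TWEAK libraries at the JUNB start began within them, at 12791442 and 12791354. Capitals mark the one match, on the minus strand, to the ETS core AGGAAG, which lies before the first base of both peaks. ETS cores were searched only as the exact strings AGGAAG and CTTCCGG, so other forms of the core within the peaks were not looked for. The 200 bases around either summit held no AGGAAG and no CTTCCGG:
JUNB promoter: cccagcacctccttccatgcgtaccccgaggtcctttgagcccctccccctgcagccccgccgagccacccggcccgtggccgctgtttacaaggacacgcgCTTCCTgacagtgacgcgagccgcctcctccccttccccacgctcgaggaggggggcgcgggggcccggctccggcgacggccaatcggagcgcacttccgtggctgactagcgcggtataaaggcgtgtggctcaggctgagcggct

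RefSeq promoter sequences of 300 bases (250 before and 50 after the start) were matched for 6 of the 7 members, all but FOSL1. AGGAAG was in 2 of these 6 (JUNB and FOSL2), beside 33.6% of 35116 promoters. TGANTCA was in 1 of 6 (FOSL2), beside 7.71%, and the cyclic AMP element TGACGTCA in 1 of 6 (JUND, at base -200), beside 1.85%. The second ETS core CTTCCGG, the NF-kB consensus and the CArG box, the site of serum response factor, were in none of the 6, beside 10.3%, 5.91% and 1.29% of all promoters. These windows are short, and the counts describe only the letters in them.

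RNA Pol II peaks covered the start of every AP-1 gene in all 8 libraries, including FOS and FOSB, whose transcripts were the scarcest of the family. The members had a Pol II site in 7 of 7 cases in each condition, beside 59.1% of all genes in untreated, 69.2% in control TWEAK, 61.3% in ETS1 KD TWEAK and 53.8% in NFKB2 KD TWEAK libraries, and likewise at promoters, beside 45.9%, 57.2%, 48.6% and 43.1%. Fold enrichment followed the library: for each of the 7 genes it was highest in control TWEAK library 1 (44672 peaks) and lowest in NFKB2 KD library 2 (11175 peaks), so the rank of a peak in its own list is given in place of a comparison of heights. The start-site peak of JUNB ranked 94 and 64 in untreated, 69 and 66 in control TWEAK, 89 and 91 in ETS1 KD and 84 and 85 in NFKB2 KD libraries. That of FOSL1 ranked 435 and 166, 240 and 125, 193 and 165, and 133 and 221 in the same order. For JUNB and FOSL1 alike the ranks of all 3 TWEAK conditions overlapped those of untreated cells. The FOSL1 peak was a domain of 12816 to 25472 bases that also spanned neighbouring genes, and in NFKB2 KD library 2 its summit lay at CCDC85B, 9649 bases past the FOSL1 start.

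FOS had start-site peaks between rank 48 of 44672 and rank 90 of 11175, with fold enrichments from 32.4 to 222, and FOSB between rank 60 and rank 190. JUN, JUND and JUNB ranked between 47 and 115. Thus 5 genes with RNA levels from 0.315 to 68.1 CPM per kb stood among the strongest 1.7% of Pol II peaks in every library, and FOSL2, at 28.9 CPM per kb, ranked lower, between 728 and 1356. Among 12698 tested genes with a MANE start, 21 had a start-site peak at least as high in every list as the worst rank of FOS, 0.805% of a list. The median RNA level of these 21 was 35.8 CPM per kb, against 4.995 for all 12698, and 2 of the 21, FOS and the histone gene H4C14, were at or below 0.864 CPM per kb. For FOSB, 2 of the 96 genes at or above its worst rank were at or below its RNA level, FOSB and again H4C14. The methods of the study name a polyA mRNA workflow, and whether it captures the H4C14 transcript was not tested. These counts of genes were chosen after the values of FOS were seen and have no test.

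**Figure D4:**
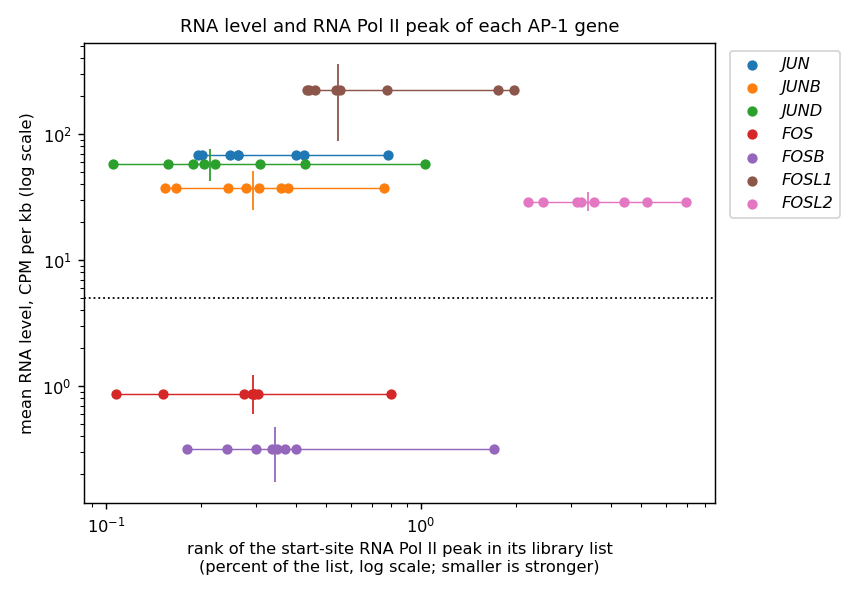
Mean RNA level per kb over 12 RNA-seq libraries (vertical axis, log scale; vertical lines span the lowest to the highest library) against the rank of the RNA Pol II peak over the start site in each of the 8 Pol II libraries (horizontal axis, percent of the list, log scale, points joined by a line), with the median RNA level of all genes dotted. FOS and FOSB lie under the dotted line at Pol II ranks that overlap those of JUN, JUNB and JUND, which lie above it, and FOSB reaches the lower rank of 1.7% of a list in NFKB2 KD library 2.

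Among genes that work with AP-1, immediate-early genes and textbook targets included several that rose with TWEAK. With TWEAK 2 of 13 partner genes and 2 of 28 MAP kinase genes passed the test. Of 13 tested partner genes of the ATF, BATF, JDP and MAF families, TWEAK raised MAFF, a small MAF protein (log2 fold change 0.93, SE 0.11, edgeR adjusted p = 0.000609), and lowered MAF (-0.85, SE 0.17, adjusted p = 0.017). These 2 of 13 stood beside 3.08% of all genes called. In ETS1 KD cells 2 of the 13 fell, ATF3 and MAF, beside 1.39% of all genes called, and ATF3 had the largest fitted change of the 13. ATF3, a stress-induced partner of JUN proteins, was at 76.5 ± 6.37 CPM in control TWEAK and 15.6 ± 1.58 CPM in ETS1 KD cells, with 74.3 ± 12.1 CPM in untreated cells (log2 fold change -2.30, SE 0.16, adjusted p = 3.15e-05). The median log2 fold change of the 13 was -0.03 with TWEAK and -0.08 in ETS1 KD cells, beside 0.02 and 0.01 for all genes.

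Of 22 other immediate-early genes tested, 5 rose and none fell with TWEAK, beside 1.55% of all genes called higher, and CCN1 (log2 fold change 1.21, SE 0.17), KLF4 (0.90, SE 0.14) and KLF2 (0.68, SE 0.14) rose most. CCN1 encodes a secreted matrix protein, and KLF4 and KLF2 zinc finger factors. The median of the 22 was 0.26. None of the 22 was called by edgeR in either knockdown against the TWEAK control, beside 1.39% of all genes for ETS1 KD and 0.0296% for NFKB2 KD. Of 28 MAP kinase genes upstream of AP-1, MAP3K5 rose (0.76, SE 0.12) and MAP2K6 fell (-0.97, SE 0.16) with TWEAK. These 2 of 28 stood beside 3.08% of all genes called. None of the 28 was called in either knockdown against the TWEAK control, beside the same 1.39% and 0.0296%. At such shares no call among 22 or 28 genes sets these lists apart.

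Of 22 textbook AP-1 target genes tested, 10 rose and none fell with TWEAK, with a median log2 fold change of 0.51 beside 0.02 for all genes and 1.55% of all genes called higher. Many of these genes are also known NF-kB targets, and the list was drawn up with earlier results of these data known. They included CXCL8, a neutrophil chemokine (log2 fold change 1.68, SE 0.23, edgeR adjusted p = 0.00174), and MMP1, a collagenase (1.48, SE 0.18, adjusted p = 0.00069). MMP9, a gelatinase, had 0 counts in all 3 untreated libraries and 18 to 118 counts under TWEAK, at least 17.9-fold higher when 3 counts per untreated library are taken as the floor. Its 3 TWEAK libraries were unequal, at 0.646, 1.27 and 3.28 CPM in ascending order, and without the highest the bound is 9.9-fold. In ETS1 KD cells 2 of the 22 fell and 1 rose against the TWEAK control, beside 1.39% of all genes called. IL6, a cytokine, was at 5.96 ± 0.99 CPM in control TWEAK and 1.31 ± 0.32 CPM in ETS1 KD cells (log2 fold change -2.18, SE 0.20, adjusted p = 0.00019), and MMP1 lay between 12.6 and 16.3 CPM in control TWEAK and between 4.96 and 6.95 CPM in ETS1 KD cells (-1.23, SE 0.18, adjusted p = 0.00364). TIMP1, an inhibitor of metalloproteinases, rose by 0.77 (SE 0.13, adjusted p = 0.0108). No gene of the list was called by edgeR in NFKB2 KD cells against the TWEAK control, beside only 0.0296% of all genes. In these cells IL6 was at 3.04 ± 0.30 CPM and MMP1 at 9.98 ± 1.74 CPM.

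Over the 12 libraries, the protein-coding genes with levels most like FOSL1 were MBD1 (Pearson r of log2 CPM 0.979), MAP2K3 (0.978), a MAP kinase kinase, and GAK (0.977). For JUNB they were SLC1A5 (0.927), MTSS1 (0.903) and TWIST1 (0.896), and for JUND RTL8A (0.976). JUN, whose level moved least, had no gene above 0.844 (MIGA2). These correlations were the highest of 11085 candidates for each of these members and are descriptive, since the 12 libraries share their groups and the trend with GC.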

How the data were processed

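RNA was measured in 12 libraries and p52, ETS1 and RNA Pol II binding in 20 ChIP-seq libraries of U-87 MG cells, grouped by the sample labels; 3 input samples were not analysed here. Per the labels, Trimmomatic, STAR (hg38) and featureCounts produced the RNA-seq table, in which the authors deposited raw counts per gene; versions and strand setting are not given in the sources used here, and the labels and the methods name different library kits. For ChIP-seq the authors mapped reads with Bowtie2 and called peaks with MACS2, and each deposited peak list, 1 per library, gives a score, a fold enrichment ratio, -log10 p-value and -log10 q-value. Depths behind the peak lists are unknown.

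Rows of the count table sharing an identifier were summed. edgeR 4.0.16 in R 4.3.3 fitted the 4 groups together (filterByExpr, TMM scaling, quasi-likelihood F-test, Benjamini-Hochberg adjustment over 16879 genes, threshold 0.05). The methods of the study used DESeq2 thresholds of their own, run here with DESeq2 1.42.0 as an alternative and as an unadjusted p of at most 0.05 with a fold of at least 1.5. CPM values are TMM-scaled, and per-kb values use the union of GENCODE 44 exons. Counting error is small at these depths except for FOS and FOSB, and replicates, described as biological, set the errors given. Peaks overlapping by at least 1 base in both libraries formed a site. The peaks fit hg38 chromosome lengths. Gene positions come from GENCODE 44. Other alternatives were RLE or no scaling, no low-count filter, the replicate number as a block, a GC and length correction, leaving out libraries, and other peak windows and thresholds; a fit with the GC trend of the library as a factor was added after seeing the data. Scripts were tested on simulated data.

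The members, lists and tests were chosen with earlier results of these data known. Other genes named are, for each list and each main comparison, at most 3 that rose and 3 that fell most past the threshold, the 3 genes most like a member, the targeted genes, and neighbours nearest to a peak; H4C14, HOOK2 and the gene markers were named besides.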

Additional observations from a re-analysis of the deposited data

How the results depend on the processing

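With TWEAK against untreated control cells, the count of AP-1 genes called (1, JUNB) became 0 with RLE scaling or no scaling and 2 (JUNB and FOSL1) with no low-count filter, DESeq2, the GC trend as a factor, the GC and length correction, the replicate block, the block with that correction, and the study's thresholds. Calls over all genes moved too, from 520 to 504 and 536 with RLE and no scaling, 859 with no filter, 876 with DESeq2, 1749 with the GC trend, 1040 with the correction, 657 with the block and 1466 with both. Without each library in turn the count of AP-1 genes was 0 to 1. For ETS1 KD TWEAK against untreated control it went from 1 to 2 with the GC trend as a factor (JUND and FOSL1) and with the block and correction (JUNB and FOSL1), beside all-gene calls that went from 2334 to 4403 and 4387, and lay between 0 and 1 without each library. For NFKB2 KD TWEAK against untreated control it went from 0 to 1 (FOSL1) with no filter, with the block and correction, and with the study's thresholds (all-gene calls from 102 to 278 with no filter and 352 with the block and correction), and between the knockdowns from 0 to 1 (JUND) with the GC trend as a factor (327 to 2176). Either knockdown against the TWEAK control stayed at 0 under every alternative. The cause of these changes was not tested. Replicate numbers did not pair the libraries throughout: deviations of same-numbered libraries correlated between -0.304 and 0.492. Those of libraries numbered 3 correlated between 0.071 and 0.492. Whether calls gained under the replicate block reflect a shared batch was not tested.

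Signs changed only for log2 fold changes that never passed the threshold. FOSL2 turned to 0.001 for TWEAK (block with correction), and with the correction alone or with the block to -0.033 and -0.038 in NFKB2 KD against control and to -0.035 and -0.037 against untreated. FOSL1 turned from -0.30 to 0.014 in NFKB2 KD against control with the GC trend as a factor, and JUN to -0.022 between the knockdowns and -0.038 in ETS1 KD against untreated with no scaling. Without each library, ranges across 0 were, for TWEAK, JUN -0.114 to 0.01, JUND -0.217 to 0.096, FOS -0.084 to 0.321 and FOSL2 -0.127 to 0.111; for ETS1 KD against control, FOSL1 -0.181 to 0.298 and FOSL2 -0.193 to 0.019; for NFKB2 KD against control, JUND -0.003 to 0.244, FOS -0.182 to 0.295 and FOSL2 -0.117 to 0.153; between the knockdowns, JUNB -0.351 to 0.045 and FOSL2 -0.246 to 0.034; for ETS1 KD against untreated, JUN -0.029 to 0.096 and FOSL2 -0.206 to 0.017; and for NFKB2 KD against untreated, JUN -0.056 to 0.068, JUND -0.098 to 0.244, FOS -0.013 to 0.404, FOSB -0.275 to 0.188 and FOSL2 -0.132 to 0.152.

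Members with a p52 site in control TWEAK cells went from 4 to 2 with -log10 q of at least 5 or with equal numbers of peaks and to 0 at promoters. With ETS1 KD guide 1 they went from 2 to 4 with a peak in either library, 1 within 5 kb and 0 at promoters (2 to 4 without each library), and with guide 2 from 3 to 1 at promoters. Members with an ETS1 site went from 1 to 5 with either library and 0 within 5 kb or at promoters in untreated cells (1 to 5 without each library), and from 4 to 2 (-log10 q of at least 5, or equal numbers) and 1 (promoters) under TWEAK. RNA Pol II counts stayed at 7. Low counts limit FOS and FOSB, and short peak lists limit absences.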
